A study of Homo sapiens with 5 samples.

Results

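The genes described here sort membrane proteins on endosomes: the ESCRT complexes, retromer and retriever, the endosomal tethering complexes and the sorting nexins. They were chosen by name, as the protein-coding genes whose symbols start with CHMP, VPS or SNX and a digit, together with ENTR1, HGS, STAM, STAM2 and TSG101. The sixth gene sought by its own name, PDCD6IP, could not be matched to a named probe set. The rule gave 75 genes of the 14812 named in the deposited table, of which 10 were CHMP, 34 VPS and 26 SNX genes and 5 were the genes sought by name. A further 4 matching names were left out, 2 of them pseudogenes and 2 antisense genes. The group was proposed with the differences between CDH26 and control clones already known, so these differences are given as a description, with standard errors and without tests of the members.

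Expression was measured on Affymetrix Gene 2.0 ST arrays in TE7 cells, a human esophageal carcinoma line. The study compared 3 clones transduced with pMIRNA1-puro-CDH26, which expresses the cadherin CDH26, with 2 clones transduced with pMIRNA1-puro-control. Every clone was derived from a single cell, was kept for 24 h in RPMI with 1.8 mM calcium before RNA extraction, and gave 1 array. Each value therefore belongs to 1 clone, clonal variation is part of the spread, and with 5 arrays every difference is imprecise.

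Cargo marked with ubiquitin is gathered on endosomes by ESCRT-0 and handed through ESCRT-I and ESCRT-II to ESCRT-III, whose filaments bud vesicles into the endosome on the way to the lysosome. Retromer, retriever and many sorting nexins act in the other direction and return receptors to the cell surface or the Golgi. In epithelial cells these routes share the handling of internalised adhesion receptors, including classical cadherins.

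The deposited values are logarithms centred, for each probe set, on the mean of the control clones. They show differences between clones but no expression level, so neither the level of a gene nor the presence of defining markers of the cell line could be checked. They are read here as log2, since the base is not recorded, and clones are always listed in the order of their numbers. CDH26 itself lay at 2.87, 3.01 and 2.63 in the CDH26 clones and at 0.01 and −0.01 in the controls. It was thus higher by 2.84 ± 0.13 log2 units (SE) in the clones that carry it, with a limma adjusted p of 0.25 over all named genes. In the same limma fit, 0 of the 14812 genes had an adjusted p under 0.05. At an unadjusted threshold of 0.05 the numbers were 520 genes above and 593 below the controls. Of the basal squamous markers listed, 5 of 9 were measured. In 4 of these every CDH26 clone lay above both controls, as in 8.98% of all named genes. The median of the 5 was 0.72, 0.75 and 0.53 in the CDH26 clones against 0.35 and −0.35 in the controls. KRT14 lay at 3.04, 3.11 and 2.02 against 0.24 and −0.24, a difference of 2.72 ± 0.43 (SE). In KRT5 the lowest CDH26 clone, at 0.50, lay just above control clone 1, at 0.49. The 4 mesenchymal markers measured of 9 had a median difference of −0.08 and the 4 leukocyte markers of 7 one of −0.01. The part of these markers in the results below was not tested.

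The endosomal sorting genes did not shift as a whole. Their median difference, CDH26 minus control, was 0.00 log2 units, as was that of all named genes, and 36 were positive and 39 negative. No member differed by 1 log2 unit or more in either direction, and the range was −0.59 to 0.44. The median size of a difference, whatever its sign, was 0.14 among the members and 0.07 among all named genes. Differences of at least 0.2 in size were found in 27 members, or 36%, and in 19.9% of all named genes.

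In 17 members (22.7%) all CDH26 clones had higher values than either control, against 8.98% of all named genes, and in 12 members (16%) all had lower values than either, against 9.93%. The remaining 46 overlapped or tied. In 45 of these the difference moved by over 1.5 times or turned its sign with some 1 clone left out. The same was found in 12 of the 29 without overlap. Members without overlap cannot turn their sign in this way, and a small difference passes a relative threshold more easily. This contrast is therefore partly set by the grouping itself and does not compare the stability of the members. Exact ties between arrays occurred in 34.7% of members and 53.7% of all named genes, for reasons that the sources do not record. Among the 49 members without ties, 13 (26.5%) lay wholly above and 11 (22.4%) wholly below the controls, against 16.4% and 18.6% of all genes without ties. These counts describe the contrast from which the group was proposed and support nothing by themselves.

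**Figure D1:**
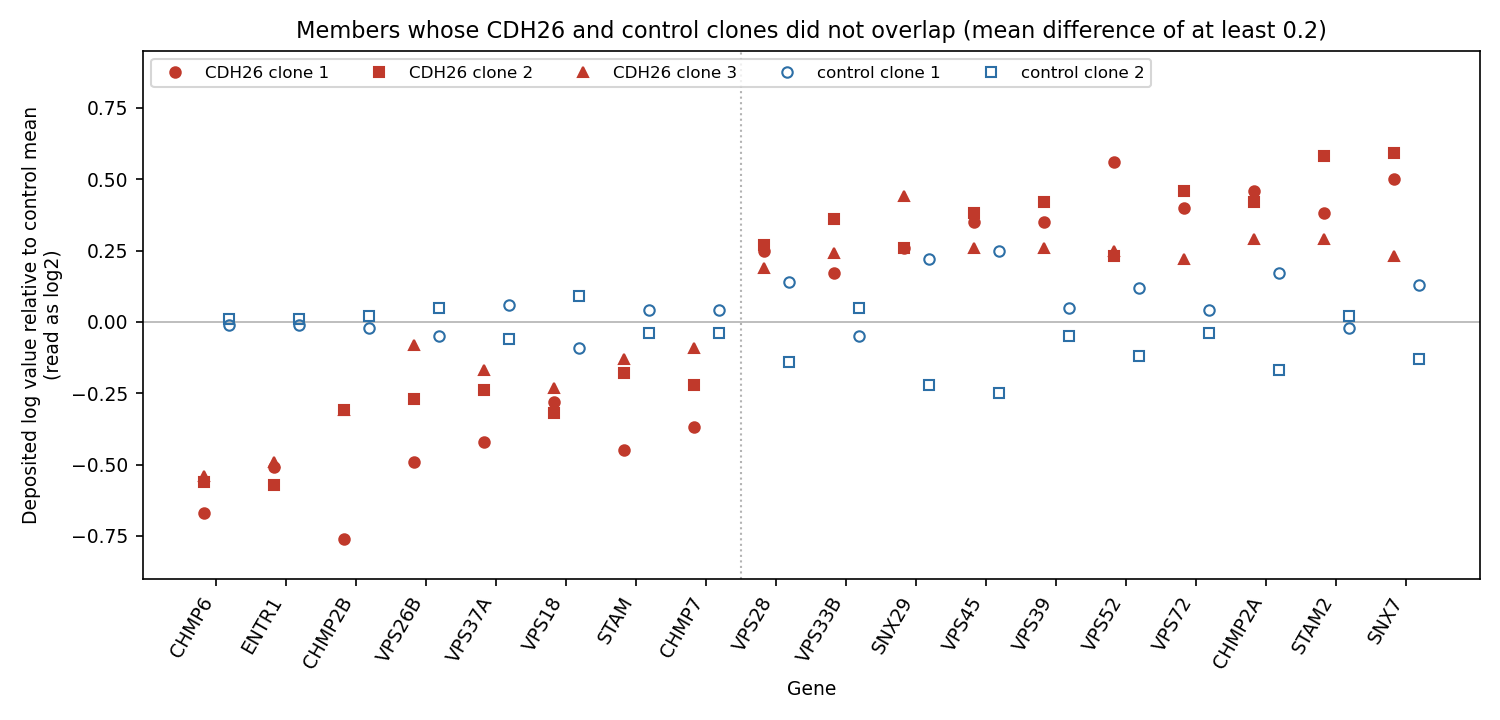
Deposited log values, read as log2 and relative to the control mean, for the 18 members without overlap between groups and with a mean difference of at least 0.2 in size; filled red symbols are the 3 CDH26 clones and open blue symbols the 2 control clones. The red symbols of CHMP6 and ENTR1 lie together far below the controls, while in VPS45 and SNX29 control clone 1 lies close beneath the CDH26 clones.

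Among the members that lay apart were 2 pairs of paralogs that differed in opposite directions, CHMP2A with CHMP2B and STAM2 with STAM, and the endosomal regulator ENTR1. The 250 bases before their annotated starts are shown so that the paralogs can be compared and because ENTR1 had the second largest difference. CHMP6, with the largest, had no entry in the promoter table. The sequences are from RefSeq for GRCh38.p14, at chr19:58555106-58555355 (minus strand), chr3:87227059-87227308 (plus strand), chr2:152175764-152176013 (minus strand), chr10:17643901-17644150 (plus strand) and chr9:136410615-136410864 (minus strand), in that order. Each is written 5′ to 3′ on the strand of its gene, and capitals mark the ETS and GC box motifs found.
CHMP2A: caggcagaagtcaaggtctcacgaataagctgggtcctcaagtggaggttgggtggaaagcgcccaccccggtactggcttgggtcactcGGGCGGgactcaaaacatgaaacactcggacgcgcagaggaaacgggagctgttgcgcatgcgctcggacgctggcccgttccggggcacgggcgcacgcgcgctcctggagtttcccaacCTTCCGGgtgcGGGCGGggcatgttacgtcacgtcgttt
CHMP2B: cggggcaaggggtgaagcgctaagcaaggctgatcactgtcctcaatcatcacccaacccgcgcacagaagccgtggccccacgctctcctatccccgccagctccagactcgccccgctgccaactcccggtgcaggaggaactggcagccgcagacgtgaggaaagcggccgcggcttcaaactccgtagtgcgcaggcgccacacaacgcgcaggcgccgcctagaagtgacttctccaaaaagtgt
STAM2: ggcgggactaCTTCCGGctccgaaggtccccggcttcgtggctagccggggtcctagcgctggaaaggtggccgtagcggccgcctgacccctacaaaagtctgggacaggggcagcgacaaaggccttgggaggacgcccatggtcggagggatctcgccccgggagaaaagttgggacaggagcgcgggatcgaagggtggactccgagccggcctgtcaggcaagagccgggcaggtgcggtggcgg
STAM: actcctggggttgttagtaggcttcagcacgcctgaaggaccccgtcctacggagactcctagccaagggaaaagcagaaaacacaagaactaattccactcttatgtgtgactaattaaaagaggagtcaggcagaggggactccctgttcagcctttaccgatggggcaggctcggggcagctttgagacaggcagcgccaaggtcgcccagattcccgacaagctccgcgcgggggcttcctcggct
ENTR1: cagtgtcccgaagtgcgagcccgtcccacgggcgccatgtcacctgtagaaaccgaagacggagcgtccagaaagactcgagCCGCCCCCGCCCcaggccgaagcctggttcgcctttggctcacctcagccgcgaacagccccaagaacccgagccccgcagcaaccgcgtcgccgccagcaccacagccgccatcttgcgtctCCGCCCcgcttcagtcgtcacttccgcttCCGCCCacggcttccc

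A promoter was matched for 55 of the 75 members, taking the first start listed for each gene. The motifs searched on both strands were the E-box CACGTG, the ETS motif CCGGAAG, the CCAAT box CCAAT, the GC box GGGCGG, the TATA box TATAAA, the cyclic AMP response element TGACGTCA and the AP-1 site TGACTCA. No occurrence of one motif overlapped another in the sequences shown. The ETS motif was present in 30.9% of the member promoters and in 12.9% of the 9704 coding genes of the table with a promoter. It occurred in 8 of the 14 promoters of members wholly above the controls and in 0 of the 5 of members wholly below, while GC boxes occurred in 8 of 14 and 3 of 5, CCAAT boxes in 4 of 14 and 0 of 5, and E-boxes in 0 of 14 and 1 of 5. The other 7 members below the controls and 3 above had no promoter here. The motif shares among all genes wholly above or wholly below the controls were not counted. A link between motifs and the members' differences was not tested. GC boxes were present in 67.3% of member promoters and 60.3% of all, E-boxes in 7.27% and 8.01%, CCAAT boxes in 25.5% and 34.7%, and TATA boxes in 1.82% and 7.89%. CHMP2A held an ETS motif at position −39 from the gene start and 2 GC boxes, STAM2 held an ETS motif at position −240, and ENTR1 held 4 GC boxes. CHMP2B and STAM held none of the motifs in this window. Cyclic AMP response elements were found in 5.45% of member promoters and 2.43% of all, and AP-1 sites in 0% and 3.07%.

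ESCRT-0 captures ubiquitinated cargo, and its subunits went apart. STAM2, an ubiquitin-binding partner of HGS, lay at 0.38, 0.58 and 0.29 in the CDH26 clones, against −0.02 and 0.02 in the controls, a difference of 0.42 ± 0.10 (SE). Its paralog STAM lay at −0.45, −0.18 and −0.13, against 0.04 and −0.04, a difference of −0.25 ± 0.12. All CDH26 clones were thus above the controls in STAM2 and below them in STAM. Without CDH26 clone 1 the STAM difference was −0.15. HGS, the subunit that binds endosomal lipid and cargo, lay at −0.38, −0.36 and −0.25 in the CDH26 clones and at −0.25 and 0.25 in the controls. Control clone 1 tied with CDH26 clone 3, and the HGS difference of −0.33 ± 0.17 came to −0.58 with control clone 1 left out and −0.08 with control clone 2 left out.

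In ESCRT-I, which links ESCRT-0 to the later complexes, 1 of 6 members lay wholly above the controls and 1 wholly below. VPS28, a core subunit, lay at 0.25, 0.27 and 0.19 in the CDH26 clones, against 0.14 and −0.14 in the controls. Its difference of 0.24 ± 0.10 (SE) came to 0.38 against control clone 2 alone and 0.10 against control clone 1 alone. VPS37A, 1 of 4 interchangeable VPS37 subunits, lay at −0.42, −0.24 and −0.17, against 0.06 and −0.06, a difference of −0.28 ± 0.09. The other VPS37 genes differed by −0.09 for VPS37B and VPS37D and 0.00 for VPS37C, and in each of them the groups overlapped. TSG101, the subunit that reads ubiquitin, lay at −0.28, −0.16 and −0.10 in the CDH26 clones and at 0.14 and −0.14 in the controls, so that control clone 2 lay among them. The TSG101 difference was −0.18 ± 0.11, or −0.04 when control clone 1 was omitted and −0.32 when control clone 2 was. In ESCRT-II neither measured subunit stood apart, with VPS36 at −0.23 ± 0.15 and VPS25, which recruits CHMP6, at 0.13 ± 0.08. They came to −0.08 and 0.02 when control clone 1 was omitted and to −0.39 and 0.24 when control clone 2 was.

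CHMP6 had the largest difference of any member. It is the ESCRT-III subunit that receives ESCRT-II and starts the filament. CHMP6 lay at −0.67, −0.56 and −0.54 in the CDH26 clones, against −0.01 and 0.01 in the controls, so the CDH26 clones were close to one another and far from both controls. The difference was −0.59 ± 0.05 (SE), or 66.4% of the control value if the base is 2, and it ranged from −0.62 to −0.55 with any 1 clone left out.

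CHMP2A and CHMP2B, the ESCRT-III subunits that cap the filament and recruit the ATPase VPS4, differed in opposite directions. CHMP2B lay at −0.76, −0.31 and −0.31 in the CDH26 clones, against −0.02 and 0.02 in the controls, a difference of −0.46 ± 0.17 (SE). CHMP2A lay at 0.46, 0.42 and 0.29, against 0.17 and −0.17, a difference of 0.39 ± 0.13, or 0.22 without control clone 2. Neither pair of groups overlapped, and CDH26 clone 1 was farthest from the controls in both genes. Taken within each array, CHMP2A minus CHMP2B was 1.21, 0.73 and 0.60 in the CDH26 clones and 0.19 and −0.19 in the controls.

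Of the other ESCRT-III genes, CHMP7, which also acts at the nuclear envelope, lay at −0.37, −0.22 and −0.09 in the CDH26 clones, against 0.04 and −0.04 in the controls. Its difference was −0.22 ± 0.10 (SE). CHMP5 was the other member wholly above the controls, by 0.11 ± 0.04, with CDH26 clones 1 and 3 tied. CHMP4B, the main filament subunit, lay at −0.13, −0.04 and −0.04, against −0.04 and 0.04, and the ATPases VPS4A and VPS4B differed by −0.02 ± 0.08 and 0.04 ± 0.04. CHMP1A, CHMP1B, CHMP4A and CHMP4C also overlapped between groups, at −0.01, 0.02, 0.03 and −0.19. Of the 12 genes of ESCRT-III and VPS4, 2 lay wholly above the controls, 3 wholly below and 7 overlapped or tied, with a median difference of −0.02.

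**Figure D2:**
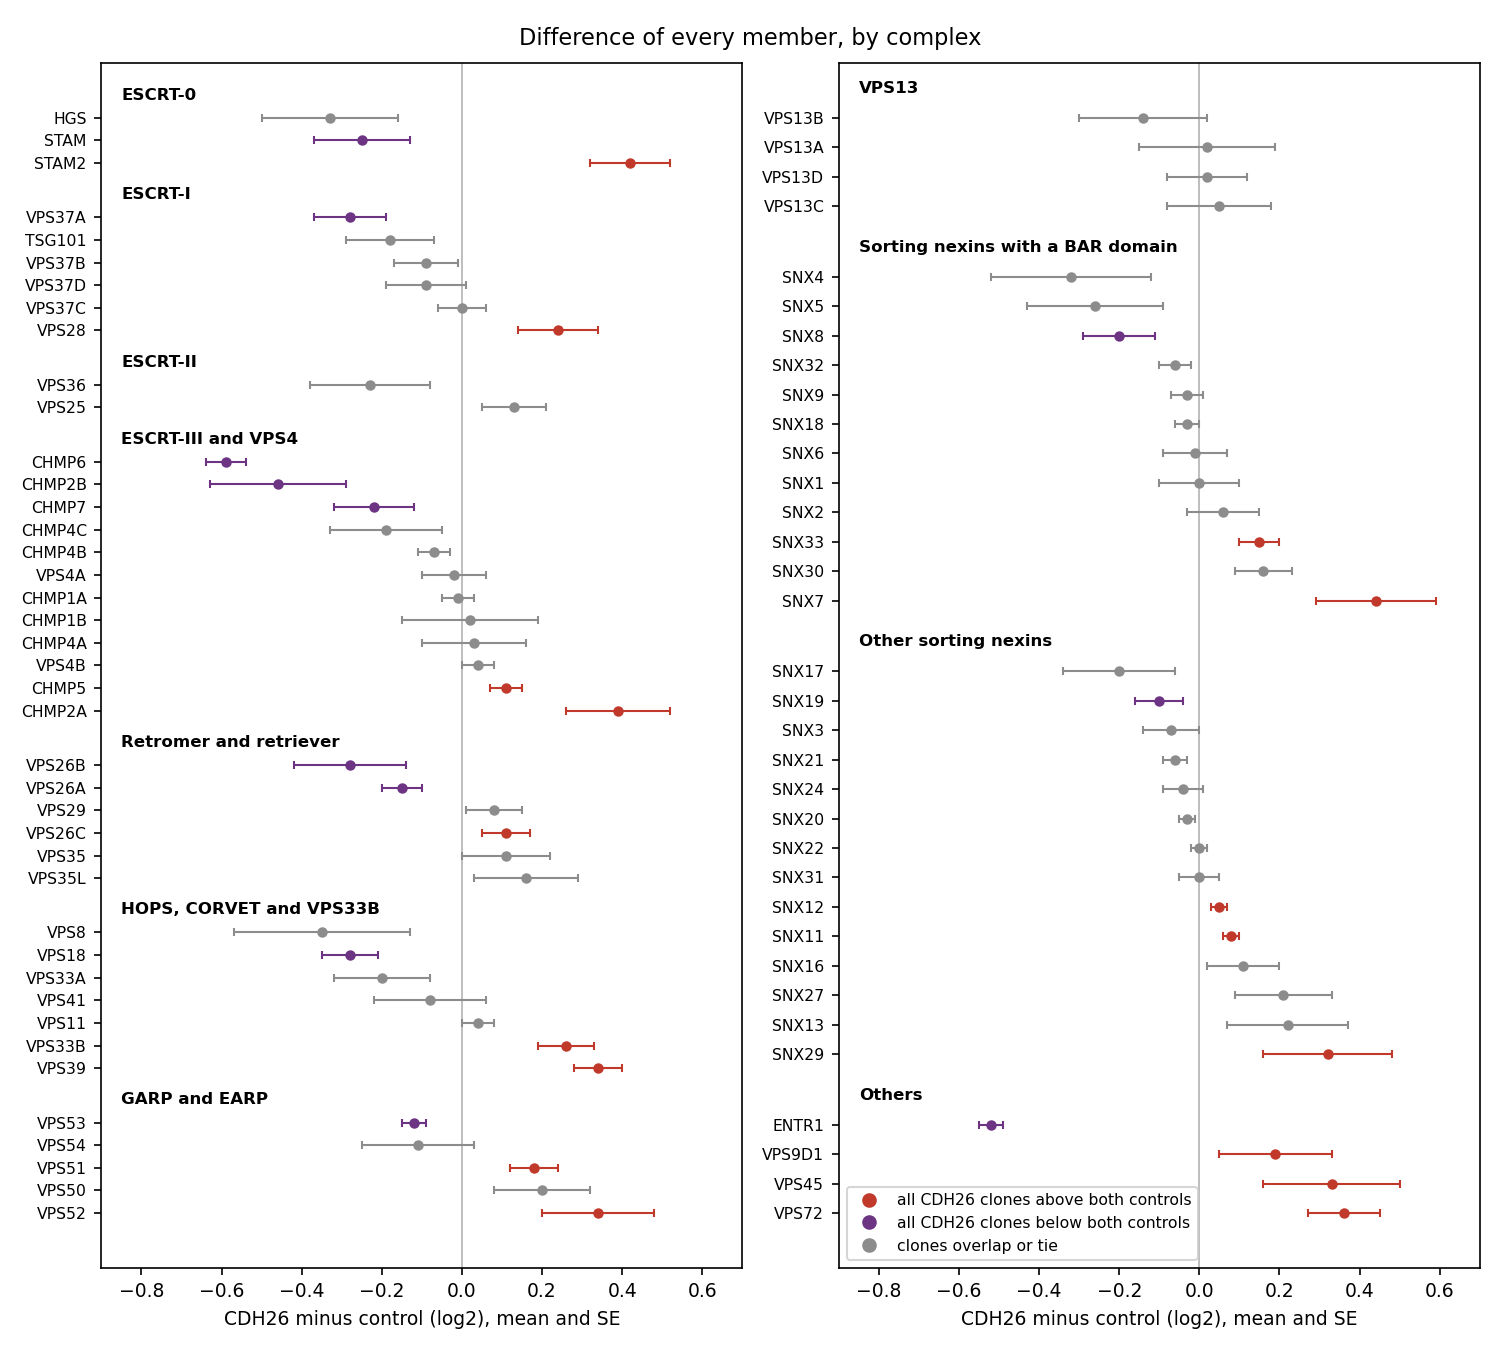
Difference of each of the 75 members, CDH26 minus control in log2 units with its standard error, grouped by complex; red marks members in which all CDH26 clones lay above both controls, purple those in which all lay below, and grey the rest. Most complexes hold members on both sides of 0, and CHMP6 and ENTR1 lie farthest to the left.

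ENTR1 encodes an endosome-associated protein of membrane trafficking and cytokinesis. It lay at −0.51, −0.57 and −0.49 in the CDH26 clones, against −0.01 and 0.01 in the controls. The CDH26 clones thus lay close to one another and apart from both controls, in a gene sought by name with this contrast already known. The difference was −0.52 ± 0.03 (SE), or 69.8% of the control value, and ranged from −0.54 to −0.50 with any 1 clone left out.

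The retromer trimer and its relative retriever include the VPS26 subunits, which bind cargo adaptors and were the only members of these complexes without overlap between the groups. VPS26B lay at −0.49, −0.27 and −0.08 in the CDH26 clones, against −0.05 and 0.05 in the controls, a difference of −0.28 ± 0.14 (SE), or −0.18 without CDH26 clone 1. VPS26A lay at −0.21, −0.16 and −0.08, against 0.02 and −0.02, a difference of −0.15 ± 0.05. VPS26C, the retriever paralog, lay wholly above the controls by 0.11 ± 0.06, with a gap of 0.01 between the groups, and differed by 0.07 without CDH26 clone 3 and 0.06 without control clone 2. The retromer scaffold VPS35 lay at 0.09, 0.16 and 0.08, against 0.16 and −0.16, and VPS29 at 0.00, 0.15 and 0.08, against 0.08 and −0.08. Both overlapped with the controls, and their differences of 0.11 ± 0.11 and 0.08 ± 0.07 became 0.27 and 0.16 when control clone 1 was omitted and −0.06 and −0.01 when control clone 2 was. VPS35L, the retriever scaffold, was at 0.16 ± 0.13.

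HOPS and CORVET tether endosomes and lysosomes before fusion and share a core, to which each adds subunits of its own. VPS18, of the shared core, lay at −0.28, −0.32 and −0.23 in the CDH26 clones, against −0.09 and 0.09 in the controls, a difference of −0.28 ± 0.07 (SE). VPS39, a HOPS subunit that binds RAB7, lay at 0.35, 0.42 and 0.26, against 0.05 and −0.05, a difference of 0.34 ± 0.06. The 2 genes did not overlap between groups and lay on opposite sides of the controls. The CORVET subunit VPS8 lay at −0.68, −0.19 and −0.17, against 0.17 and −0.17, and tied with control clone 2. VPS33A, the fusion-promoting core subunit, differed by −0.20 ± 0.12, VPS41 by −0.08 ± 0.14 and VPS11 by 0.04 ± 0.04, each with overlap or a tie. Omitting control clone 1 gave −0.06 for VPS33A and 0.13 for VPS41, and omitting control clone 2 gave −0.35 and −0.29.

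VPS33B, the paralog of VPS33A, works outside HOPS with VIPAS39 in epithelial polarity and recycling. VPS33B lay at 0.17, 0.36 and 0.24 in the CDH26 clones, against −0.05 and 0.05 in the controls, a difference of 0.26 ± 0.07 (SE). Its partner VIPAS39 is not among the 75 genes and comes from the list of tethering factors. VIPAS39 lay at 0.60, 0.75 and 0.37, against 0.14 and −0.14, a difference of 0.57 ± 0.15. Both subunits of this pair were therefore wholly above the controls.

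GARP returns vesicles from endosomes to the Golgi, and EARP, which has VPS50 in place of VPS54, serves recycling. VPS52, common to both, lay at 0.56, 0.23 and 0.25 in the CDH26 clones, against 0.12 and −0.12 in the controls. Its difference of 0.34 ± 0.14 (SE) was 0.23 without control clone 2, and its 2 probe sets gave 0.28 and 0.41. VPS51 was also wholly above the controls, by 0.18 ± 0.06 with probe sets at 0.11 and 0.25, while VPS53 was wholly below at −0.12 ± 0.03, or −0.08 without control clone 1. VPS54 at −0.11 ± 0.14 and VPS50 at 0.20 ± 0.12 overlapped or tied. The lipid transfer genes VPS13A to VPS13D ranged from −0.14 to 0.05 and all overlapped. VPS13A was among the 3 members that differed most between the controls, at 0.24 and −0.24, with VPS45 and HGS, and its CDH26 clones at −0.10, 0.03 and 0.14 fell between them.

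VPS45, which assists membrane fusion at early endosomes, lay at 0.35, 0.38 and 0.26 in the CDH26 clones, against 0.25 and −0.25 in the controls. Control clone 1 was only 0.01 beneath the lowest CDH26 clone, and the difference of 0.33 ± 0.17 (SE) came to 0.58 against control clone 2 alone and 0.08 against control clone 1 alone. VPS72 meets the naming rule but encodes a chromatin protein that handles the histone variant H2A.Z rather than an endosomal one. It lay at 0.40, 0.46 and 0.22, against 0.04 and −0.04, a difference of 0.36 ± 0.09. VPS9D1 was at 0.19 ± 0.14, with a gap of 0.01 between the groups, and at 0.07 without CDH26 clone 1.

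Sorting nexins bind endosomal phosphoinositides, and those with a BAR domain shape the tubules that carry recycled cargo. SNX7, of this class, lay at 0.50, 0.59 and 0.23 in the CDH26 clones, against 0.13 and −0.13 in the controls, a difference of 0.44 ± 0.15 (SE). This was the highest positive difference among the members, and the groups did not overlap. The genes SNX1, SNX2, SNX5 and SNX6 encode the BAR pairs that recycle cargo alongside retromer. They differed by 0.00 ± 0.10, 0.06 ± 0.09, −0.26 ± 0.17 and −0.01 ± 0.08, and their groups overlapped or tied. SNX5 lay at −0.52, −0.15 and −0.11, against 0.11 and −0.11, and its difference was −0.13 without CDH26 clone 1 and −0.15 without control clone 1. SNX4, which recycles the transferrin receptor, was at −0.32 ± 0.20 and also overlapped, and came to −0.17 without CDH26 clone 1 and −0.18 without control clone 1. SNX33 was wholly above the controls by 0.15 ± 0.05 and SNX8 wholly below at −0.20 ± 0.09, or −0.13 without CDH26 clone 2, while SNX9, SNX18, SNX30 and SNX32 ranged from −0.06 to 0.16 with overlap or ties.

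Of the 14 sorting nexins without a BAR domain, 3 lay wholly above the controls and 1 wholly below. SNX29 lay at 0.26, 0.26 and 0.44 in the CDH26 clones, against 0.22 and −0.22 in the controls. Its difference of 0.32 ± 0.16 (SE) came to 0.54 against control clone 2 alone and 0.10 against control clone 1 alone. SNX11 and SNX12 were higher by 0.08 ± 0.02 and 0.05 ± 0.02. In both genes CDH26 clones 1 and 3 tied, which may lower these standard errors. SNX19 was at −0.10 ± 0.06 with a gap of 0.01, or −0.18 when control clone 1 was omitted and −0.03 when control clone 2 was. The retromer adaptor SNX27, which recycles receptors with a PDZ-binding tail, lay at 0.24, 0.23 and 0.17, against 0.17 and −0.17. Control clone 1 lay within 0.01 of the lowest CDH26 clone, and the SNX27 difference of 0.21 ± 0.12 was 0.38 without that control and 0.04 without control clone 2. SNX17, the adaptor of retriever, was at −0.20 ± 0.14 and SNX3, which guides retromer, at −0.07 ± 0.07, both with overlap. SNX13, SNX16, SNX20, SNX21, SNX22, SNX24 and SNX31 ranged from −0.06 to 0.22, all with overlap or ties.

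**Figure D3:**
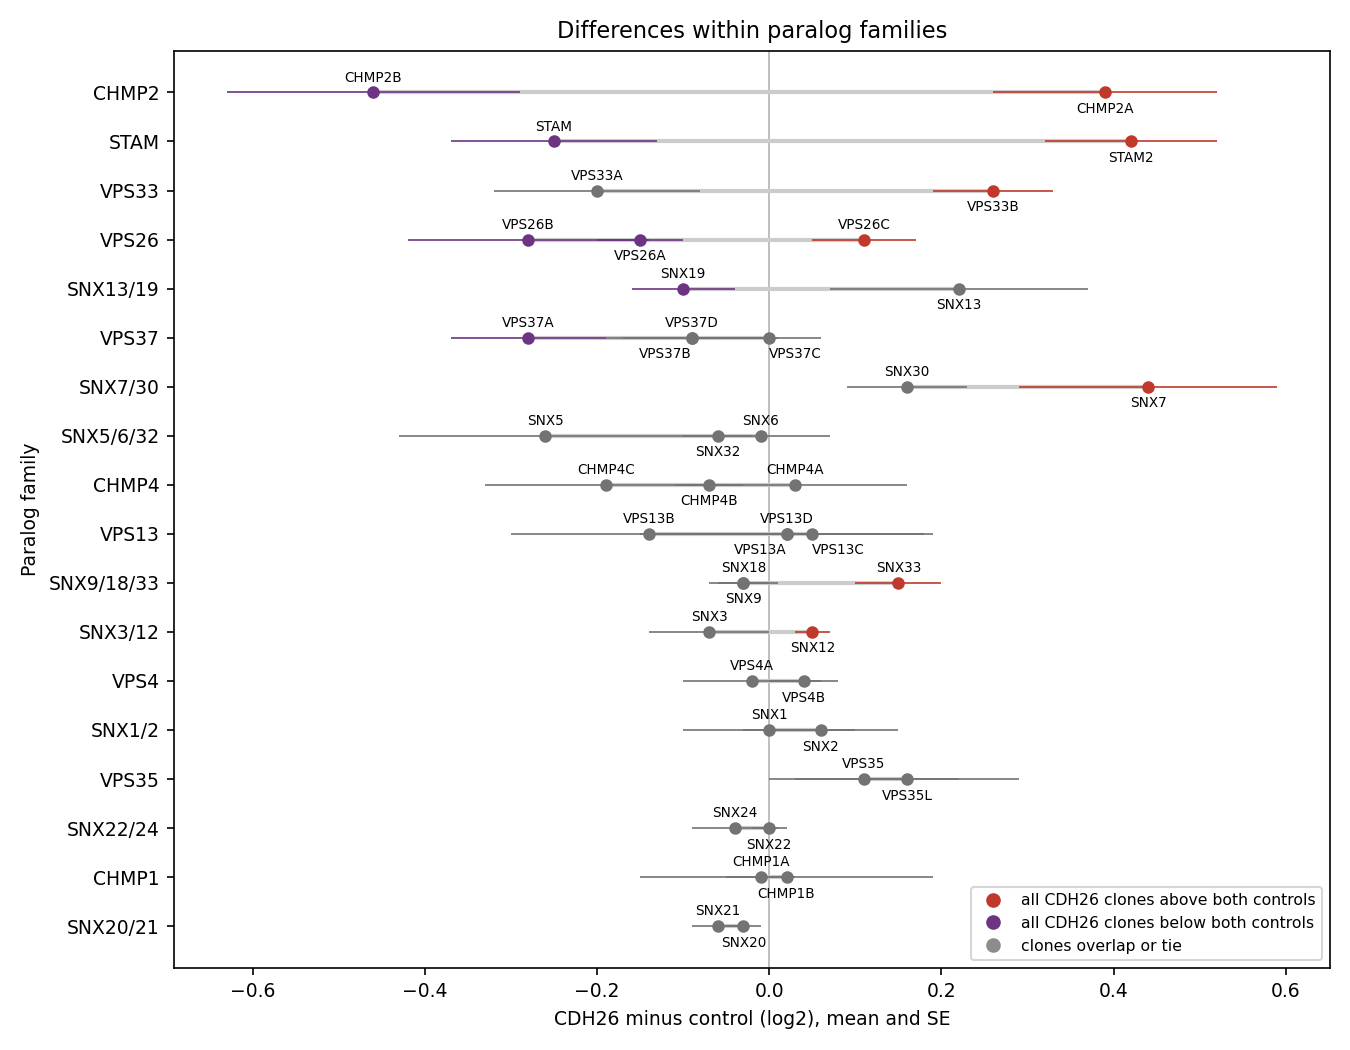
Differences of paralogs within the 18 families with more than 1 member, CDH26 minus control in log2 units with standard errors, families ordered by their range; red, purple and grey mark members wholly above, wholly below and overlapping the controls. The CHMP2 and STAM families span 0 with well separated members, while CHMP1, VPS4 and SNX1 with SNX2 lie close together.

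Across the 18 families with more than 1 member, paralogs on opposite sides of the controls without overlap were found in 3, the CHMP2, STAM and VPS26 families. STAM2 minus STAM, taken within each array, was 0.83, 0.76 and 0.42 in the CDH26 clones against −0.06 and 0.06 in the controls. VPS26C minus VPS26B was 0.58, 0.33 and 0.27, against 0.10 and −0.10. VPS33B minus VPS33A was 0.49, 0.51 and 0.39, against −0.20 and 0.20, although VPS33A alone tied with a control. The pairs are the highest and lowest member of each family, so their direction is set by that choice. Each CDH26 clone exceeded both controls in these 4 pairs and also in those of 5 other families, VPS13, SNX7 with SNX30, SNX3 with SNX12, the SNX5 family and the SNX9 family. The highest and lowest members of the CHMP1, VPS4, VPS35, SNX1 with SNX2, SNX20 with SNX21, and SNX22 with SNX24 families lay within 0.07 of each other.

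The median over members differed more between CDH26 clones for the members below the controls than for those above. Of the 12 members wholly below the controls, CDH26 clone 1 was the lowest in 7, and CDH26 clone 3 was the nearest to the controls in 9. Of the 17 members wholly above, CDH26 clone 2 was the highest in 10 and clone 3 the nearest in 9, with 4 ties. The median of the 12 members was −0.39, −0.26 and −0.13 in the CDH26 clones, against 0.00 and 0.00 in the controls. The median of the 17 members was 0.26, 0.26 and 0.23 in the CDH26 clones, against 0.04 and −0.04 in the controls. These medians do not measure the spread within a gene, since the farthest clone was not the same in every gene. Within single genes the standard deviation of the CDH26 clones ran from 0.02 to 0.26 below the controls and from 0.01 to 0.20 above. Control clone 1 exceeded control clone 2 in 46 of the 75 members and lay below it in 26, while over all named genes these numbers were 6344 and 6325.

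Position on the chromosome was not used in the choice of genes. The members' differences are still those from which the group was proposed. The comparison with neighbours was added after the values were seen. For each member the median difference was taken over up to 10 measured coding genes on each side, leaving out other members. Members and neighbours differed in the same sense in several places. For the counts of neighbours that follow, 8.98% of all named genes lay wholly above the controls and 9.93% wholly below. Around HGS and CHMP6, both on chromosome 17, the neighbours had medians of −0.20 and −0.16, and 9 and 6 of 20 lay wholly below the controls with 0 above. Around VPS45 on chromosome 1 the neighbours' median was 0.22, with 7 of 20 wholly above and 0 below. By clone, the medians around VPS45 were 0.28, 0.26 and 0.14, against 0.16 and −0.16 in the controls. CDH26 clone 3 thus lay below control clone 1 there. Around SNX27 on the same chromosome the neighbours' median was 0.13. The neighbours of VPS26A on chromosome 10 had a median of −0.23, with 8 of 20 wholly below.

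The neighbours of CHMP2A, CHMP2B and SNX7 had medians of 0.01, 0.00 and 0.00. Around CHMP2A 1 of 11 neighbours lay wholly above the controls and 3 below, around CHMP2B 5 of 20 above and 2 below, and around SNX7 3 of 20 above and 1 below. The neighbours of ENTR1 had a median of −0.06, with 5 of 20 wholly below and 0 above. Around STAM2 the median was 0.11 and 8 of 20 neighbours lay wholly above the controls, while around STAM it was −0.03, with 1 of 20 above and 2 below. In all, 3 members had a neighbour median under −0.12 and 5 one over 0.08, the 5th and 95th percentiles over 11911 coding genes. These numbers are near the share of coding genes that lies beyond each percentile by definition. Over the 75 members, Pearson's r between a member's difference and its neighbours' median was 0.61 and Spearman's rho 0.63, and over all coding genes 0.26 and 0.28. The members' differences were also larger in size, with a median of 0.14 against 0.07 among all named genes, so the sets compared are unlike. All these points come from the same 5 arrays, and adjacent members share neighbours, so the correlation is a description. The share of position in the members' differences was not tested.

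**Figure D4:**
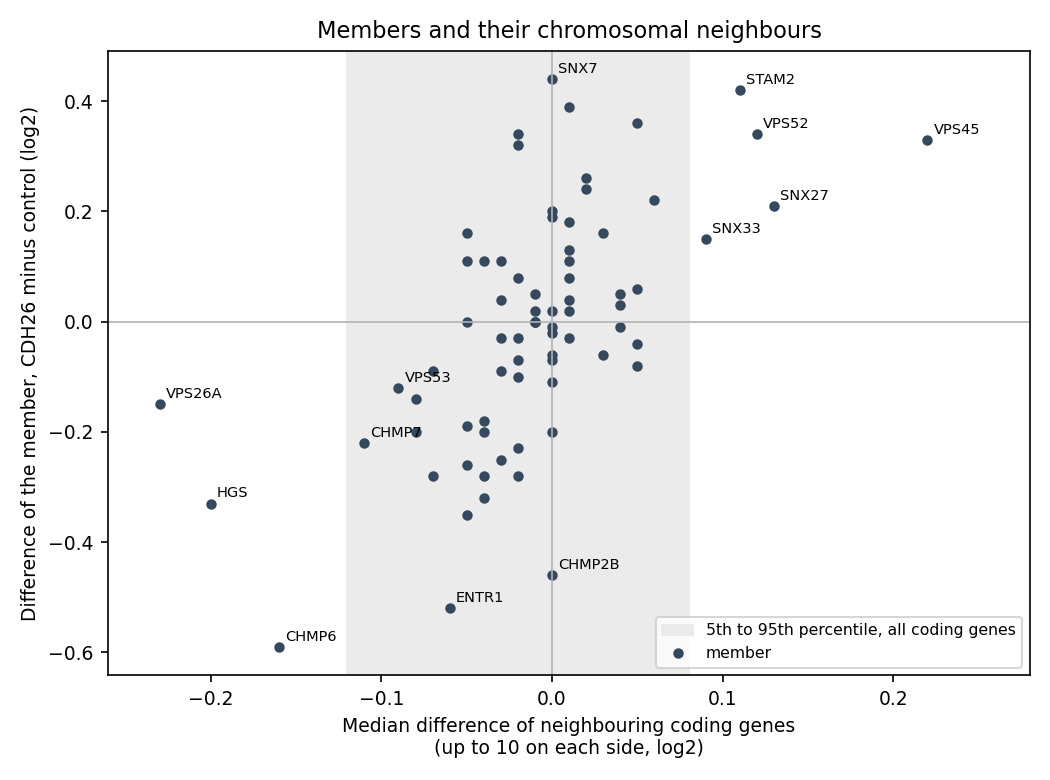
Difference of each of the 75 members, CDH26 minus control in log2 units, against the median difference of up to 10 coding neighbours on each side; the grey band runs from −0.12 to 0.08, the 5th to 95th percentile over all coding genes. HGS, CHMP6 and VPS26A lie to the left of the band and VPS45 to the far right, while SNX7 and CHMP2B lie at a neighbour median of 0.

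Genes that act with the endosomal sorting machinery were read from 7 further lists, of which 90 of 170 genes were measured. Of these, 6 (6.67%) lay wholly above the controls and 12 (13.3%) wholly below, near the shares of all named genes given above, and their median difference was −0.04. Among 23 ESCRT partners only TOM1L1 lay apart, at −0.09 ± 0.07 (SE), or −0.03 without CDH26 clone 1. Among 5 WASH and retromer partners, WASHC4 of the actin-nucleating WASH complex was at 0.13 ± 0.07, or 0.08 without CDH26 clone 2, and ANKRD27 at −0.06 ± 0.03, or −0.03 without control clone 1 and −0.10 without control clone 2. Of 12 commander genes, which work with retriever, COMMD6 was at −0.18 ± 0.08, or −0.11 without control clone 1, and COMMD5 at −0.14 ± 0.05.

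Of 31 genes listed for endosomal Rab GTPases and recycling, 10 were measured, namely RAB11FIP1 to RAB11FIP5, EHD1 to EHD4 and ARF6. No Rab GTPase of the list was among them. Of the 10 genes, 3 lay wholly below the controls and 1 above. The share of all named genes was 9.93% below and 8.98% above. The 3 belong to the RAB11 effectors, which steer recycling endosomes to the surface and of which 5 were measured. The list was not divided in this way before the values were seen. RAB11FIP2 lay at −0.61, −0.47 and −0.24 in the CDH26 clones, against 0.08 and −0.08 in the controls, a difference of −0.44 ± 0.13 (SE). RAB11FIP1 lay at −0.46, −0.45 and −0.21, against −0.16 and 0.16, a difference of −0.38 ± 0.14, or −0.21 without control clone 2. The third was RAB11FIP3, at −0.25, −0.08 and −0.10, against −0.02 and 0.02, a difference of −0.14 ± 0.07. RAB11FIP4 and RAB11FIP5 overlapped between the groups, at −0.05 ± 0.04 and −0.05 ± 0.11. The gene above was the small GTPase ARF6, at 0.26 ± 0.08.

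Of 13 genes of endosomal phosphoinositides and tethering, 1 lay wholly above, VIPAS39, and 3 wholly below. RUBCN, a brake on the endosomal lipid kinase complex, was at −0.45 ± 0.14 (SE), and the lipid phosphatase MTMR1 at −0.22 ± 0.08, or −0.11 without control clone 1 and −0.34 without control clone 2. Of 10 sorted receptors only TGOLN2, which cycles between the Golgi and the surface, lay apart. TGOLN2 was at 0.63, 0.59 and 0.31 in the CDH26 clones, against −0.10 and 0.10 in the controls, a difference of 0.51 ± 0.13. Of 17 lysosomal genes 2 lay wholly above and 2 wholly below, among them the protease CTSZ at −0.33 ± 0.12, the hexosaminidase HEXA at 0.29 ± 0.12 and the transcription factor MITF at −0.26 ± 0.08. Without control clone 2, HEXA was at 0.17 and MITF at −0.16.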

How the data were processed

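The values deposited by the authors form 1 table of logarithms, read as log2, of 44607 probe sets on 5 arrays. Per the submitters' processing notes Affymetrix Expression Console was used; for its version, summarisation, background correction and genome build the entry is: not given in the sources used here. In each row the control values summed to 0 within 1e-06, so probe sets were centred on the control mean. Platform annotation named 15835 probe sets, each with 1 gene, and all matched RefSeq (GRCh38.p14, used for names, gene order and promoters). Probe sets were averaged per gene. No brightness filter or renewed normalization can be applied to centred values.

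The CDH26 and control clones were set against each other in R 4.3.3 with limma 3.58.1 (lmFit, eBayes, group as the only term, two-sided, Benjamini-Hochberg over 14812 genes) and the step was tested on simulated data. Overlap was read with a tolerance of 1e-05. The members, the partner lists and the tests were chosen with earlier results of these data known. Named were CDH26, members without overlap and a difference of at least 0.2 (up to 15 each way), 19 core genes where measured, the 3 members that differed most between controls and up to 3 partner genes per list; other members follow by value or range. RAB11FIP3 and the comparison with neighbours were added after the values were seen. Figures were drawn with matplotlib 3.10.9.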

Additional observations from a re-analysis of the deposited data

How the results depend on the processing

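Array medians were already 0, so subtracting them could change nothing. Requiring a gap of more than 0.1 between the groups left 7 members above and 5 below the controls, where all named genes gave 3.22% and 3.44%. With 1 clone left out in turn, the members wholly above numbered 17 in the full data and 18 to 32 otherwise, and those wholly below 12 to 31. The highest counts came without control clone 1 above (32, against 25.9% of all genes) and without control clone 2 below (31, against 25.7%). Members below numbered 22 when CDH26 clone 3 was left out (17.3% of all genes) and 21 when control clone 1 was (27%). Fewer clones leave fewer conditions to meet, so these counts rise by construction. Partner genes without overlap numbered 18 of 90, against 18.9% of all named genes, and 22 to 59 with a clone left out. The higher ones were 39 when CDH26 clone 3, 47 when control clone 2 and 59 when control clone 1 was omitted. All named genes gave 32.1%, 49.5% and 52.9% in these settings. The median member difference stayed between −0.03 and 0.03.

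Genes past the adjusted threshold of limma numbered 0 with all clones, and 0 to 186 with 1 left out; the 186 came without control clone 1, a fit in which the remaining control borrows its variance from the CDH26 clones. They were also 0 with trend and robust variance, array weights, an adjusted p of 0.1 and a replicate block. The replicate numbers are names of clones only: deviations of clones with the same number correlated at −0.20 and −0.21 over genes, and with the replicate block CDH26 differed by 2.94 with an adjusted p of 0.563, and the median member difference was −0.02. Over all alternatives CDH26 stayed between 2.75 and 2.94 (4.10 if the values are natural logarithms), with adjusted p from 0.0632 to 0.77. Of 240 values of single genes with 1 clone left out, 212 moved by less than the spread between replicates. The other 28 moved further, 14 without each control clone. Leaving out 1 of 3 CDH26 clones cannot move a difference by that spread, and either control moves it equally. These counts therefore do not measure robustness. Genes without overlap cannot change sign when 1 clone is left out, so the 0 that did so were fixed in advance. A change to natural logarithms only rescales every difference. A repeated normalization and a stricter brightness filter were not run.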
